A study of Mus musculus with 26 samples.

Results

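The genes described here are the collagens, the laminin chains and the linker proteins of the basement membrane in pancreatic islets, the clusters of hormone cells that secrete insulin and glucagon. Members were taken by symbol, as every listed gene named as a collagen chain or a laminin chain together with Nid1, Nid2, Hspg2 and Agrn, and 43 of the 13641 listed genes met this rule. They comprised 9 fibrillar collagen genes, 3 collagen IV genes, 8 laminin genes, 4 linkers, 2 multiplexin genes, 4 collagen VI genes and 13 other collagen genes. Collagen IV, the laminins and the linkers are called the 15 basement membrane genes below. The level filter, which asked for at least 1 FPKM in at least 6 libraries, kept 42 members, and Col11a1, which peaked at 1.33 FPKM, was not tested. Among the 42, 5 had no adult library at 1 FPKM and passed through neonatal libraries alone (Col7a1, Col8a2, Col9a3, Col25a1 and Col26a1).

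Fibrillar collagens are triple helices that pack into the cable-like fibrils of interstitial connective tissue, and types I and III are made mainly by fibroblasts and related mesenchymal cells. Basement membranes are thin sheets under epithelia and around vessels, in which a laminin network and a collagen IV network are joined by nidogens and by the heparan sulfate proteoglycans perlecan and agrin. In rodent islets the beta cells make little basement membrane of their own, and the vessel wall around them supplies laminins and collagen IV that reach beta cells through integrin receptors.

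Bulk RNA-seq had been run on hand-picked C57BL/6J mouse islets, with RNA from 30 to 50 islets per sample and 250 ng of it per ribosomal-RNA-depleted library. The groups were adult islets at 2.5 months (6 libraries, 4 in batch 2 and 2 in batch 3), small islets of P5 neonates (9 libraries, 4 in batch 1, 3 in batch 2 and 2 in batch 3) and large islets of P5 neonates (11 libraries, 4 in batch 1, 4 in batch 2 and 3 in batch 3). No genotype or treatment distinguished the groups, the size limit between small and large was not given in the labels used here, and the labels did not say whether libraries came from separate animals. The p-values therefore measure the spread between libraries. Islet identity held in all 26 libraries, with Ins2 at 76973 to 106976 FPKM in adult, 46411 to 72106 in neonatal small and 48684 to 77730 in neonatal large islets.

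Other cell types were present throughout, and several of their marker lists moved with 1 or both contrasts. Over all genes tested, 46.8% were called lower and 21.1% higher in adult islets (adjusted p under 0.05). In small islets 12.7% were called lower and 4.96% higher. Beside these shares, the endothelial markers between sizes and the Schwann cell and macrophage markers between ages did not stand out as lower. Over the 15 mesenchymal markers, 12 were lower in adult than in neonatal islets and 7 were lower in small than in large neonatal islets, and none was at 0 in any library. Their summed level was 99.99 to 164 FPKM in adult, 304 to 666 in neonatal small and 348 to 1320 in neonatal large libraries. All 14 endothelial markers were lower in adult islets and 1, Emcn, was lower in small islets, with sums of 179.6 to 229.6 FPKM in adult, 517 to 772 in neonatal small and 534 to 796 in neonatal large libraries. Schwann cell markers were lower for 3 and higher for 1 of 6 tested in adult islets and lower for 5 of 6 in small islets, with sums of 7.51 to 14.0 FPKM in adult, 9.25 to 16.3 in neonatal small and 13.9 to 29.9 in neonatal large libraries. Macrophage markers were lower for 1 and higher for 2 of 7 tested in adult islets and lower for 3 of 7 in small islets, with sums of 53.5 to 72.8 FPKM in adult, 39.7 to 63.0 in neonatal small and 43.8 to 82.5 in neonatal large libraries. All 7 tested duct markers were lower in adult islets, and 3 of the 7 were lower in small islets. In islet RNA, fewer cells of a type and less RNA per cell cannot be told apart, and the part of these cell types in the results below was not tested. A pair of batch 3 libraries stood apart with the highest mesenchymal sums of their groups, neonatal small replicate 5 (666 FPKM) and neonatal large replicate 16 (1320 FPKM). Acinar markers summed to 3995 FPKM in adult replicate 1 and to 3513 FPKM in neonatal large replicate 14, against at most 822 FPKM elsewhere, and 0 of the 7 tested were called in either contrast.

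Collagen IV led the members in all groups. FPKM values are divided by a gene length. Those lengths were not given, so the orders and shares between genes below depend on them. In adult islets the highest mean levels were those of Col4a1 at 39.5 ± 4.99 FPKM, Col4a2 at 24.3 ± 3.70 FPKM and Col6a6 at 23.1 ± 7.90 FPKM (SD, n = 6). In neonatal small islets the order was Col4a1, Col4a2, Hspg2, Col15a1, Lamc1 and Col3a1, and Col6a6 ranked 12. In neonatal large islets Col3a1 and Col1a1 stood directly after Col4a1 and Col4a2, ahead of Hspg2, and Col6a6 ranked 16. Several of these neighbours lay within 1 SD of each other, among them Col4a2 and Col6a6 in adult islets. Col4a1 and Col4a2 together held on average 26.5% of the summed member FPKM in adult, 43.6% in neonatal small and 36.7% in neonatal large islets. Col1a1, Col1a2 and Col3a1 together held 12.0% in adult, 10.6% in neonatal small and 18.5% in neonatal large islets.

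**Figure D1:**
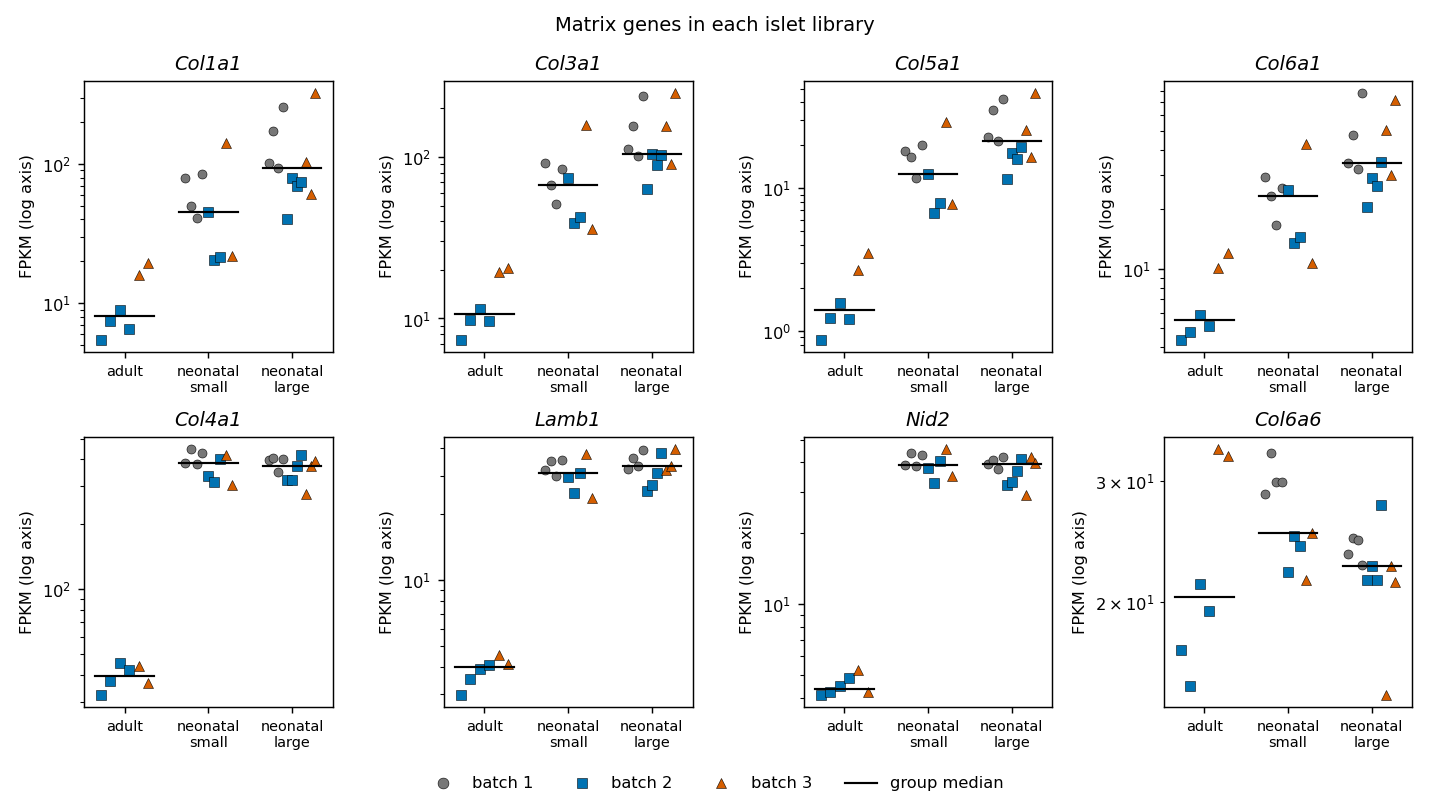
Level of 8 members in each library, in FPKM on a log axis, for adult, neonatal small and neonatal large islets from left to right; colour and shape give the batch and the line is the group median. Col4a1, Lamb1 and Nid2 form tight neonatal clouds well above the adult libraries, Col1a1 and Col3a1 spread widely among neonatal libraries, and Col6a6 overlaps between all groups.

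Most members were lower in adult than in neonatal islets. Of the 42 tested, 34 fell and 1 rose at an adjusted p under 0.05 (limma on log2(FPKM + 1) with batch as a covariate, Benjamini-Hochberg over 13402 genes), and 7 did not pass. Over all genes tested, 46.8% were called lower and 21.1% higher. The median member differed by -1.42 on the log2 scale, against -0.16 over all genes. Leaving aside the 5 members with no adult library at 1 FPKM, 30 of 37 fell. Without any test, every adult library lay below every neonatal library for 29 of 43 members, against 20.2% of all genes, and the opposite held for 0 members, against 5.21% of all genes. Within batch 2 the adult libraries lay below all neonatal ones for 35 of 43 members, against 44.2% of all genes, and within batch 3 for 32 of 43, against 41.8%. These counts include Col8a2, Col9a3, Col25a1 and Col26a1, which passed the filter through neonatal libraries alone. The batch 2 count also includes Col7a1, and both batch counts include the untested Col11a1. The log2 differences here are on a scale with 1 FPKM added, which understates the change of genes at low levels.

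**Figure D2:**
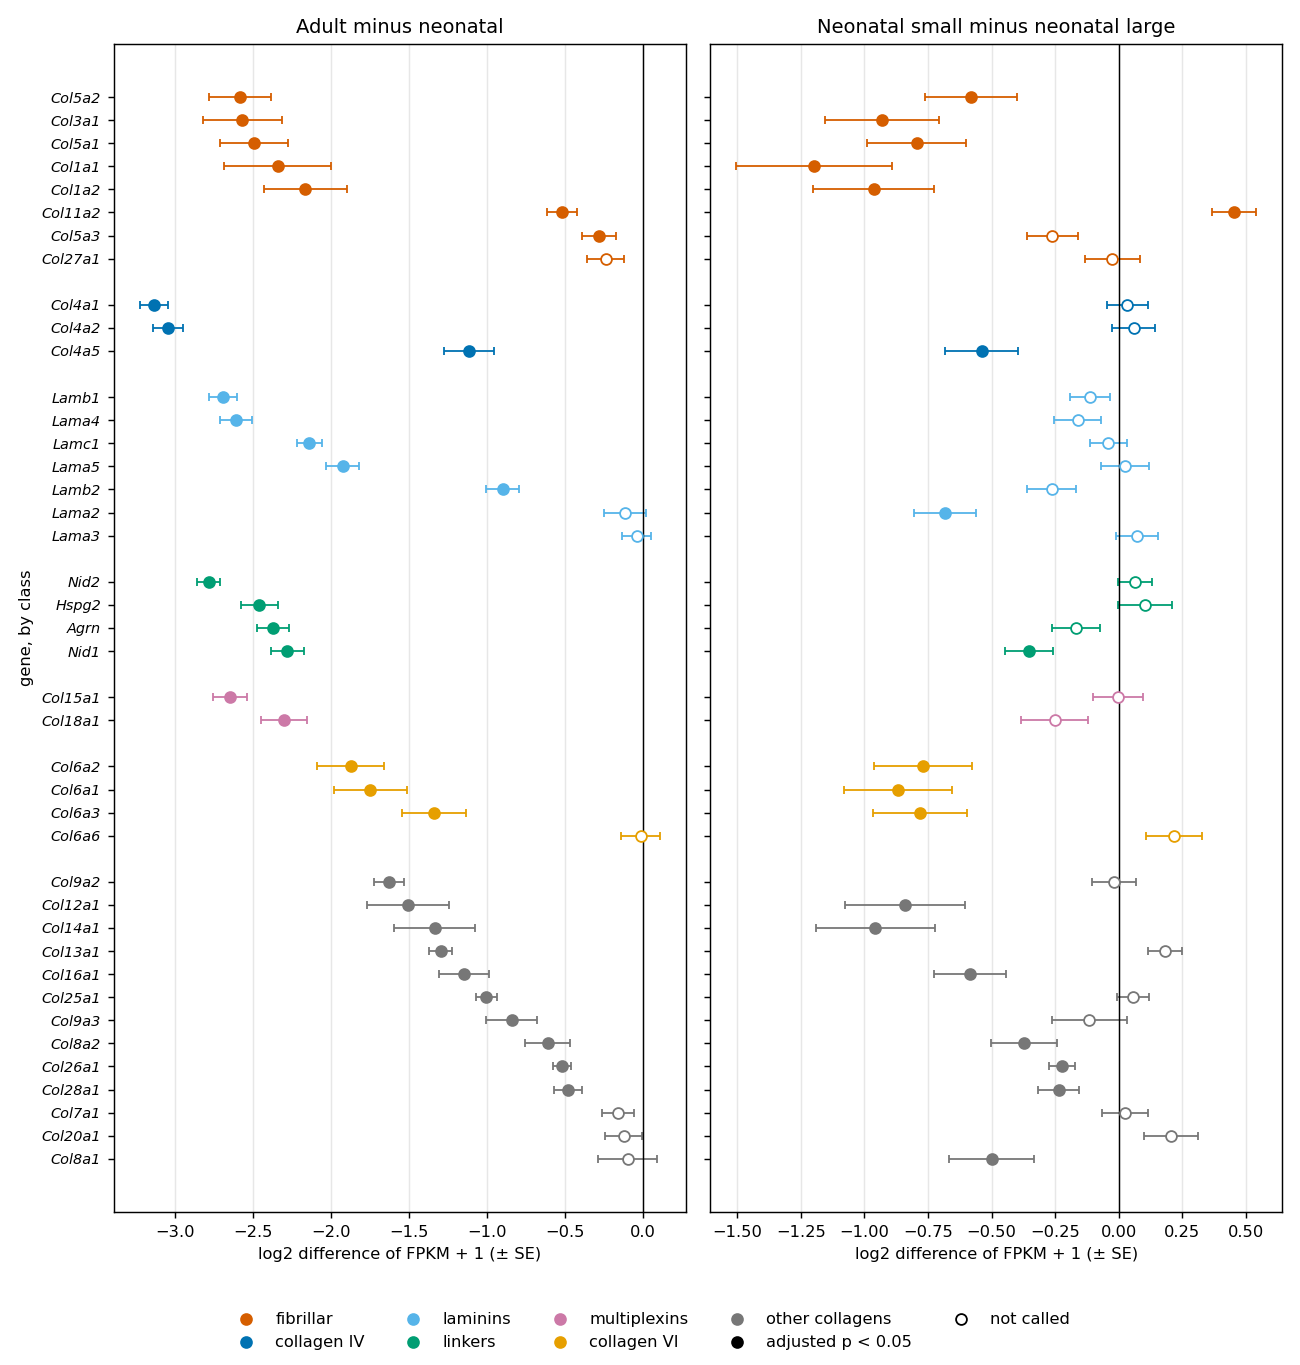
Log2 difference with its standard error for 41 of the 42 tested members, ordered by class, with adult minus neonatal on the left and neonatal small minus neonatal large on the right; filled points have an adjusted p under 0.05. The left panel shows 34 members filled below 0, and the right panel shows most fibrillar and collagen VI genes left of 0, Col11a2 right of it, while Col4a1, Col4a2 and Nid2 sit near it.

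The fibrillar and the basement membrane class had similar median differences between the ages. Among the fibrillar genes, 7 of 8 tested fell, with a median difference of -2.25. Among the basement membrane genes, 12 of 15 fell, with a median of -2.28. Set against the median of all genes, these were -2.10 and -2.12. The same classes gave fibrillar medians of -2.37 in batch 2 and -2.06 in batch 3, and basement membrane medians of -2.40 in batch 2 and -2.08 in batch 3.

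Collagen IV showed the largest class difference. Col4a1 and Col4a2 encode the chains of the common collagen IV trimer, and the genes lie head to head on chromosome 8, Col4a1 on the minus and Col4a2 on the plus strand. In RefSeq on GRCm38.p6 their starts overlap by 22 bases at chr8:11312805-11312826, shown on the plus strand because the pair moved together, with a GC box (GGGCGG) in capitals:
Col4a1 and Col4a2: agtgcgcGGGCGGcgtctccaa
Col4a1 stood at 32.1, 39.5 and 45.1 FPKM in adult islets (lowest, median, highest), at 303, 386 and 447 FPKM in neonatal small and at 276, 375 and 419 FPKM in neonatal large islets. No adult library came near a neonatal one, and the neonatal groups overlapped. Its log2 difference was -3.13 ± 0.09 (SE, adjusted p = 6.61e-20), and the adult mean was 0.106 of the neonatal mean. Col4a2 stood at 19.3, 23.9 and 28.6 FPKM in adult, at 182, 235 and 275 FPKM in neonatal small and at 155, 225 and 249 FPKM in neonatal large islets, a log2 difference of -3.04 ± 0.09 (adjusted p = 1.93e-19). The Col4a1 to Col4a2 ratio had medians of 1.66 in adult, 1.65 in neonatal small and 1.66 in neonatal large islets. Col4a5, a chain of a rarer trimer, was far lower, at 0.431 to 1.22 FPKM in adult, 1.61 to 4.09 in neonatal small and 1.69 to 6.70 in neonatal large islets. It fell as well (-1.12 ± 0.16, adjusted p = 9.34e-07).

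Laminins are trimers of an alpha, a beta and a gamma chain, and 5 of the 8 laminin genes fell (median -1.41). Of the alpha chains, Lama4 and Lama5, the chains of vascular basement membranes, stood at 2.17, 3.30 and 4.88 FPKM for Lama4 and 1.85, 2.27 and 3.57 FPKM for Lama5 in adult islets. Lama4 reached 18.4, 26.3 and 31.4 FPKM in neonatal small and 23.5, 28.2 and 32.2 FPKM in neonatal large islets, and differed by -2.61 ± 0.10 (adjusted p = 1.49e-17). Lama5 reached 10.1, 14.6 and 17.6 FPKM in neonatal small and 8.42, 14.2 and 20.5 FPKM in neonatal large islets, and differed by -1.92 ± 0.10 (adjusted p = 1.03e-14). Adult and neonatal libraries did not overlap for either chain. Lama2, the alpha chain of muscle and peripheral nerve basement membranes, stood at 1.99, 3.51 and 4.11 FPKM in adult, 1.45, 2.92 and 4.98 FPKM in neonatal small and 3.47, 4.92 and 7.20 FPKM in neonatal large islets (-0.12, adjusted p = 0.464). Lama3, an epithelial alpha chain, stood at 2.09, 2.49 and 3.17 FPKM in adult, 1.99, 2.80 and 5.27 FPKM in neonatal small and 2.00, 3.29 and 3.73 FPKM in neonatal large islets (-0.04, adjusted p = 0.708, and +0.30 under quantile normalization). Both overlapped between all groups.

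The common beta and gamma chains fell with Lama4 and Lama5. Lamb1 stood at 2.97, 4.00 and 4.53 FPKM in adult, 23.8, 31.0 and 37.7 FPKM in neonatal small and 25.6, 33.1 and 39.8 FPKM in neonatal large islets (-2.69 ± 0.09, adjusted p = 4.05e-19). Lamb2, the other beta chain of vascular and synaptic laminins, changed much less, at 4.19, 4.88 and 5.80 FPKM in adult, 7.33, 9.93 and 12.7 FPKM in neonatal small and 7.62, 11.5 and 20.3 FPKM in neonatal large islets (-0.90 ± 0.11, adjusted p = 3.28e-08). In FPKM, Lamb1 was thus below Lamb2 in every adult library and above it in every neonatal library. This order rests on the gene lengths behind the FPKM, worked out from the values as 9545 bases for Lamb1 and 5591 for Lamb2. The change between the ages does not depend on them. Lamc1, the gamma chain of most laminins, stood at 13.1, 15.6 and 17.6 FPKM in adult, 59.5, 74.8 and 84.5 FPKM in neonatal small and 55.7, 76.9 and 85.1 FPKM in neonatal large islets (-2.14 ± 0.08, adjusted p = 6.16e-18). No adult library overlapped a neonatal one for these chains.

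All 4 linkers fell (median -2.41) and separated the ages without overlap. Nid1 and Nid2 encode the nidogens, which tie laminin to collagen IV. Nid2 stood at 4.10, 4.35 and 5.25 FPKM in adult, 32.7, 38.9 and 45.7 FPKM in neonatal small and 29.0, 39.2 and 42.3 FPKM in neonatal large islets (-2.78 ± 0.07, adjusted p = 1.47e-20). Nid1 stood at 7.04, 8.53 and 12.3 FPKM in adult, 35.3, 42.7 and 64.6 FPKM in neonatal small and 44.6, 56.4 and 80.4 FPKM in neonatal large islets (-2.28 ± 0.11, adjusted p = 4.26e-16). Hspg2, which encodes perlecan, stood at 11.5 to 19.9 FPKM in adult, 76.8 to 140.0 in neonatal small and 58.6 to 128 in neonatal large islets (-2.46 ± 0.12, adjusted p = 7.32e-16). Agrn, which encodes agrin, stood at 2.42 to 5.58 FPKM in adult, 16.6 to 31.1 in neonatal small and 16.4 to 32.2 in neonatal large islets (-2.37 ± 0.10, adjusted p = 1.27e-16).

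The multiplexins, collagens of the basement membrane zone whose C-terminal fragments include endostatin, followed the linkers. Col15a1 stood at 8.24 to 15.9 FPKM in adult, 65.0 to 106 in neonatal small and 67.4 to 103 in neonatal large islets (-2.65 ± 0.11, adjusted p = 4.12e-17). Col18a1 stood at 1.23 to 2.51 FPKM in adult, 7.06 to 20.4 in neonatal small and 7.27 to 32.3 in neonatal large islets (-2.30 ± 0.15, adjusted p = 3.83e-13). Neither overlapped between the ages.

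Fibrillar collagens I, III and V fell between the ages by amounts close to those of the basement membrane genes, but with far more spread between neonatal libraries. Col1a1, which encodes a chain of collagen I, stood at 5.47, 8.14 and 19.6 FPKM in adult, 20.3, 45.5 and 142 FPKM in neonatal small and 40.2, 93.2 and 323 FPKM in neonatal large islets. The highest neonatal library exceeded the lowest by 15.9 times for Col1a1, against 1.62 times for Col4a1. Every adult library was below every neonatal one, though the adult maximum came within 1 FPKM of the lowest neonatal library. The log2 difference was -2.34 ± 0.34 (adjusted p = 2.37e-06). Fitted alone, batch 2 gave -2.42 and batch 3 gave -2.20. Col1a2, the partner chain, stood at 3.88, 5.14 and 14.0 FPKM in adult, 15.6, 27.7 and 66.6 FPKM in neonatal small and 24.4, 46.5 and 142 FPKM in neonatal large islets and differed by -2.16 ± 0.27 (adjusted p = 1.6e-07). Col3a1, the collagen of reticular fibres, stood at 7.41, 10.6 and 20.6 FPKM in adult, 36.0, 66.7 and 157 FPKM in neonatal small and 63.3, 105 and 248 FPKM in neonatal large islets (-2.57 ± 0.25, adjusted p = 3.14e-09).

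Collagen V, which starts fibrils and sets their width, showed the lowest adult to neonatal ratios among the fibrillar genes. Col5a1 stood at 0.867, 1.39 and 3.51 FPKM in adult, 6.72, 12.6 and 29.1 FPKM in neonatal small and 11.7, 21.4 and 46.3 FPKM in neonatal large islets (-2.49 ± 0.22, adjusted p = 3.56e-10). Its adult mean was 0.0906 of the neonatal mean, and that of Col5a2 was 0.0958. Col5a2 stood at 1.03, 1.73 and 2.57 FPKM in adult, 8.05, 14.8 and 25.4 FPKM in neonatal small and 12.1, 19.0 and 44.5 FPKM in neonatal large islets (-2.58 ± 0.20, adjusted p = 3.18e-11). Neither gene overlapped between the ages. Col5a3 was low throughout, with means of 1.24 ± 0.267 FPKM in adult islets, and overlapped between the groups (-0.28 ± 0.11, adjusted p = 0.026). The minor fibrillar genes were also low. Col11a2, known from cartilage, stood at 0.790 to 1.61 FPKM in adult, 1.67 to 9.44 in neonatal small and 1.67 to 4.76 in neonatal large islets (-0.52 ± 0.10, adjusted p = 4.12e-05). Col11a1, not tested, stood at 0.0868 to 0.252 FPKM in adult, 0.218 to 0.691 in neonatal small and 0.563 to 1.33 in neonatal large islets. Col27a1 did not pass (-0.24, adjusted p = 0.0793).

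Collagen VI forms beaded microfilaments around cells, and its classical chains moved with the fibrillar genes. Col6a1 stood at 4.38, 5.49 and 12.0 FPKM in adult, 10.6, 23.3 and 43.1 FPKM in neonatal small and 20.5, 34.4 and 77.4 FPKM in neonatal large islets (-1.75 ± 0.24, adjusted p = 5.84e-07). The highest adult library, of batch 3, lay above the lowest neonatal small library. Col6a2 fell too, at 1.57, 2.40 and 5.66 FPKM in adult, 6.01, 12.6 and 23.3 FPKM in neonatal small and 10.8, 18.3 and 40.5 FPKM in neonatal large islets (-1.87 ± 0.22, adjusted p = 4.26e-08). So did Col6a3, at 1.57, 2.12 and 4.85 FPKM in adult, 3.72, 6.89 and 13.8 FPKM in neonatal small and 7.49, 11.0 and 24.7 FPKM in neonatal large islets (-1.34 ± 0.20, adjusted p = 3.06e-06). Col6a2 separated the ages and Col6a3 overlapped between adult and small islets. Col6a6, a longer alternative chain, stood at 15.1, 20.3 and 33.3 FPKM in adult, 21.5, 25.2 and 32.9 FPKM in neonatal small and 14.7, 22.6 and 27.6 FPKM in neonatal large islets, and did not pass (-0.01, adjusted p = 0.924). In differences of library means its batches pointed opposite ways, with -0.36 in batch 2 and +0.64 in batch 3. The fitted difference between the batches was called (+0.99 ± 0.19, adjusted p = 0.000375). In that test of batch 3 against batch 2, which called 25.9% of all genes higher and 19.1% lower, 4 members were higher and 2 lower, and none of the 8 fibrillar genes was called.

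Of the 13 other collagens, 10 fell, none rose and 3 did not pass (median -0.84). Of the 8 with an adult library at 1 FPKM, 6 fell (median -1.22). Col9a2, a fibril-associated collagen best known from cartilage, stood at 1.53 to 2.40 FPKM in adult, 6.30 to 11.7 in neonatal small and 5.90 to 11.2 in neonatal large islets (-1.62 ± 0.10, adjusted p = 6.39e-14). Col12a1, a fibril-associated collagen of dense connective tissue, stood at 0.445 to 1.01 FPKM in adult, 1.61 to 7.13 in neonatal small and 3.10 to 22.3 in neonatal large islets (-1.51 ± 0.26, adjusted p = 2.09e-05). Col14a1, of the same fibril-associated group, stood at 1.53 to 5.18 FPKM in adult, 3.77 to 14.9 in neonatal small and 7.47 to 31.7 in neonatal large islets (-1.33 ± 0.26, adjusted p = 8.55e-05). In batch 3 alone 28 members were called lower, against 33.8% of all genes. Col1a1, Col5a3, Col6a3, Col8a2, Col12a1, Col14a1 and Col28a1 kept their direction there but lost the call.

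The adult libraries were also set against each neonatal group in turn. Against neonatal small islets, 33 members fell and 1 rose, where 43.1% of all genes were called lower and 19.9% higher. Against neonatal large islets, 35 fell and 0 rose, where 46.9% were called lower and 20.2% higher. The fibrillar medians were -1.71 against small and -2.76 against large islets, and the basement membrane medians were -2.12 against small and -2.41 against large islets. These comparisons share their adult libraries.

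The summed levels show how the classes compare in each library. The 9 fibrillar genes summed to 22.3, 32.5 and 66.2 FPKM in adult, 97.5, 184 and 429.5 FPKM in neonatal small and 158, 291 and 812 FPKM in neonatal large islets. The 15 basement membrane genes summed to 111, 142 and 164 FPKM in adult, 790.2, 1014 and 1169.7 FPKM in neonatal small and 759, 1007 and 1128 FPKM in neonatal large islets. Both sums separated adult from neonatal libraries, and only the fibrillar sum varied widely among neonatal ones, with a coefficient of variation of 63.7% against 13.4% for the basement membrane sum.

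The fibrillar to basement membrane ratio was 0.201, 0.236 and 0.459 in adult, 0.106, 0.166 and 0.387 in neonatal small and 0.195, 0.302 and 0.719 in neonatal large islets. In every batch the mean ratio was lower in small than in large islets, at 0.201 in small and 0.415 in large islets of batch 1, 0.145 in small and 0.253 in large islets of batch 2, and 0.256 in small and 0.480 in large islets of batch 3. The adult means, 0.220 in batch 2 and 0.396 in batch 3, lay between those of small and large islets in each batch. On the log2 scale the ratio differed by -0.94 between small and large islets (-1.01, -0.84 and -0.97 in batches 1, 2 and 3) and by 0.20 between adult and neonatal islets (0.18 and 0.25 in batches 2 and 3), beside an SD of 0.61 within group and batch. The sums weight the abundant Col1a1, Col1a2 and Col3a1 most. With the mean log2(FPKM + 1) of each class in place of sums, small and large islets differed by -0.37 (-0.36, -0.41 and -0.32 in batches 1, 2 and 3) and adult and neonatal islets by 0.28. No test was made of these sums.

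**Figure D3:**
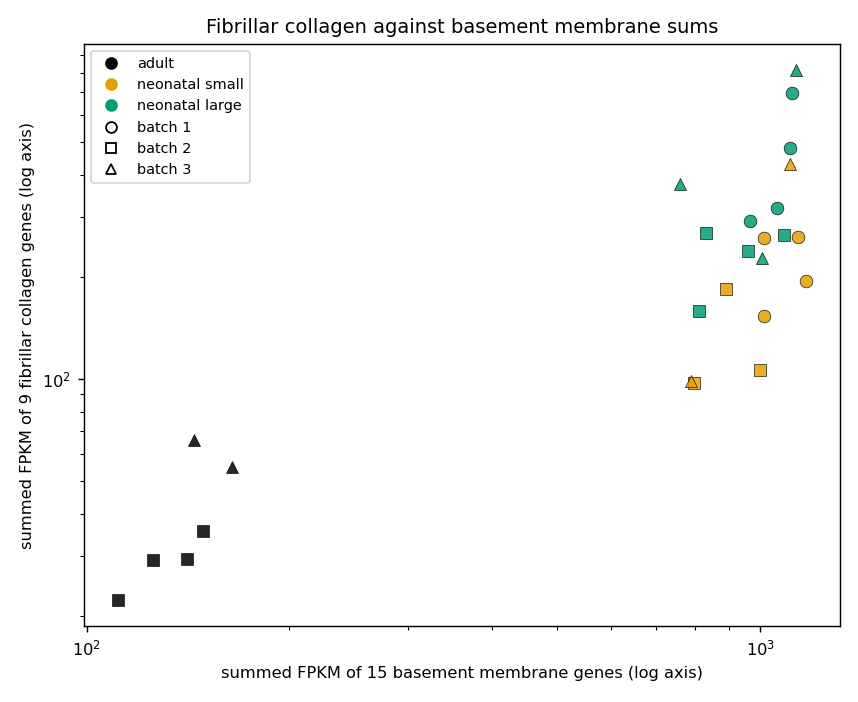
Summed FPKM of the 15 basement membrane genes (x axis) against that of the 9 fibrillar genes (y axis) in each library, both on log axes; colour gives the group and shape the batch. Adult libraries sit apart at low values of both, and the neonatal libraries share a narrow range in x while the large-islet ones reach higher in y.

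Median spread between libraries of the same group and batch differed between the classes, though single genes overlapped. The median SD on the log2 scale was 0.47 for the fibrillar genes and 0.46 for the collagen VI genes, against 0.21 for the basement membrane genes and 0.14 for all genes tested. Col1a1 had an SD of 0.75 and Nid2 one of 0.16. The fibrillar Col11a2 (0.16), Col27a1 (0.23) and Col5a3 (0.23) and the collagen VI gene Col6a6 (0.16) spread less than the basement membrane genes Col4a5 (0.35) and Lama2 (0.31). Between the highest and lowest neonatal library Nid2 differed by 1.57 times and Lamc1 by 1.53 times.

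Ratios between chains of a common trimer or between paralogues changed with age, and such ratios within a library do not depend on its scaling. An exact two-sided permutation test within batches (6930 arrangements, adjusted over 7 ratios) called 5 of the 7, and the smallest p these arrangements can give is 0.000144. The Lamb1 to Lamb2 ratio was 0.71, 0.765 and 0.922 in adult, 2.93, 3.08 and 3.65 in neonatal small and 1.96, 2.81 and 3.38 in neonatal large islets, with no overlap between the ages. Its log2 difference was -1.94 (exact permutation p = 0.000144, adjusted p = 0.000337). Batch 2 gave -2.05 and batch 3 gave -1.74. The Nid1 to Nid2 ratio was 1.72, 1.92 and 2.66 in adult, 0.983, 1.07 and 1.42 in neonatal small and 1.19, 1.51 and 2.03 in neonatal large islets, so that adult libraries overlapped the upper end of the large-islet ones (+0.60, exact permutation adjusted p = 0.000337).

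Among the other ratios, Lama4 to Lama5 had medians of 1.32 in adult, 1.79 in neonatal small and 2.01 in neonatal large islets (-0.66, exact permutation adjusted p = 0.000505). Col6a1 to Col6a2 had medians of 2.26 in adult, 1.79 in neonatal small and 1.90 in neonatal large islets (+0.31, exact permutation adjusted p = 0.000337). Col4a1 to Col4a2 differed by only -0.07 although the exact permutation test called it (adjusted p = 0.00202). Within the fibrillar genes, Col1a1 to Col1a2 gave -0.14 and Col3a1 to Col1a1 gave -0.18, and neither passed (exact permutation adjusted p = 0.253 for both).

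**Figure D4:**
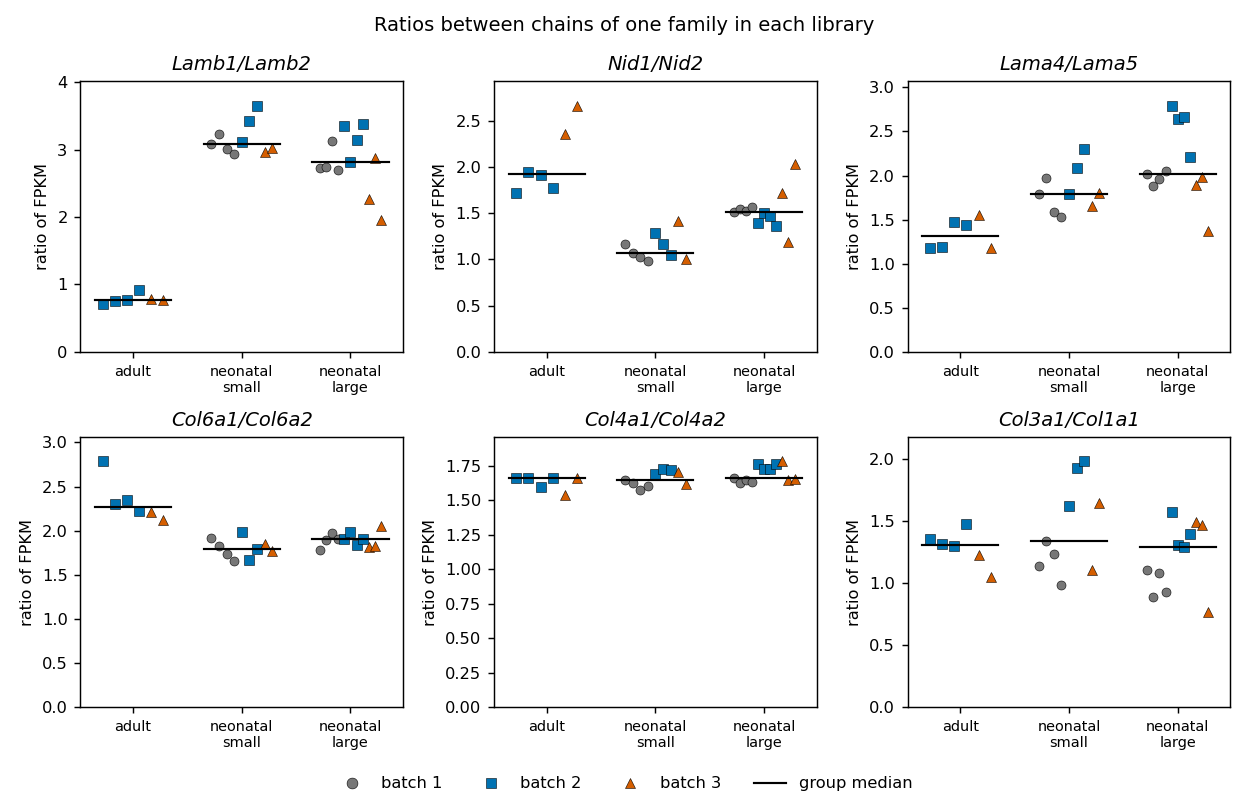
FPKM ratio of 6 gene pairs in each library, on linear axes from 0, for adult, neonatal small and neonatal large islets from left to right; colour and shape give the batch and the line is the group median. The Lamb1 to Lamb2 ratio is below 1 in all adult libraries and above 1.9 in all neonatal ones, while Col4a1 to Col4a2 stays near 1.66 throughout.

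Between neonatal islets of different size, 5 of the 8 tested fibrillar genes and 3 of the 4 collagen VI genes were lower in small than in large islets, and 11 of the 15 basement membrane genes did not pass. Of the 42 members tested, 19 fell in small islets, 1 rose (Col11a2) and 22 did not pass, where 12.7% of all genes were called lower and 4.96% higher. The member median was -0.23, against -0.04 over all genes. Fibrillar genes gave 5 lower and 1 higher of 8 (median -0.69), collagen VI 3 lower of 4 (median -0.78), the other collagens 7 lower of 13, the multiplexins 0 of 2 and the basement membrane genes 4 lower of 15 (median -0.11).

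Col1a1 averaged 56.3 ± 39.9 FPKM in neonatal small and 125 ± 89.2 FPKM in neonatal large islets (SD, n = 9 small and 11 large), and the groups overlapped. Its difference was -1.20 ± 0.31 (adjusted p = 0.0123), and the batches gave -1.22, -1.20 and -1.17. Without large replicate 16 it was -1.07 (adjusted p = 0.0138), and without small replicate 5 it was -1.40 (adjusted p = 0.0029). Col1a2 differed by -0.96 ± 0.24 (adjusted p = 0.00995), Col3a1 by -0.93 ± 0.22 (adjusted p = 0.00837) and Col5a1 by -0.79 ± 0.20 (adjusted p = 0.0091). Col5a2 differed by -0.58 ± 0.18 (adjusted p = 0.03), a call lost without large replicate 13 or without small replicate 3, 6 or 8 (adjusted p 0.0510 to 0.0726). Col11a2 went the other way, with +0.45 ± 0.09 (adjusted p = 0.00179) and +0.77, +0.26 and +0.21 in batches 1, 2 and 3.

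Collagen VI matched these sizes, with Col6a1 at -0.87 ± 0.21 (adjusted p = 0.00861), Col6a2 at -0.77 ± 0.19 (adjusted p = 0.0105) and Col6a3 at -0.78 ± 0.18 (adjusted p = 0.00674). The fibril-associated Col14a1 (-0.96, adjusted p = 0.00879) and Col12a1 (-0.84, adjusted p = 0.0189) fell as well. Col16a1 fell by 0.58 (adjusted p = 0.0079). For Col26a1 and Col8a1 no small-islet library reached 1 FPKM. Col26a1 passed the filter through 7 large-islet libraries alone, and Col8a1 through 8 large-islet and 3 adult libraries, so their calls partly follow from the filter. Col26a1 stood at no more than 0.925 FPKM in small islets and at 0.814 to 1.49 FPKM in large islets (-0.22, adjusted p = 0.00606). Col8a1, a short-chain network collagen, stood at 0.441 to 0.902 FPKM in small and 0.798 to 7.66 FPKM in large islets, a difference of -0.50 (adjusted p = 0.0408). Without large replicate 16, its highest library, it gave -0.34 (adjusted p = 0.00193), and without small replicate 5 it lost the call (adjusted p = 0.0635).

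Among the basement membrane genes that fell in small islets were Lama2 (-0.68 ± 0.12, adjusted p = 0.000976), Col4a5 (-0.54 ± 0.14, adjusted p = 0.0135) and Nid1 (-0.35 ± 0.10, adjusted p = 0.0146). Lama2 stood at 1.45, 2.92 and 4.98 FPKM in small and at 3.47, 4.92 and 7.20 FPKM in large islets, which overlapped. The main chains differed little, with +0.03 ± 0.08 for Col4a1 (adjusted p = 0.803), -0.04 for Lamc1 (adjusted p = 0.717) and +0.06 for Nid2 (adjusted p = 0.517). Nid1 therefore moved without Nid2, and the Nid1 to Nid2 ratio was lower in small islets in all 3 batches (-0.54, -0.30 and -0.43, exact permutation adjusted p = 0.00371 over 24500 arrangements). The exact permutation test called 6 of the 7 ratios between small and large islets, the largest difference apart from the nidogens being +0.28 for Col3a1 to Col1a1 (adjusted p = 0.0418).

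Batch 1 carried the calls between small and large islets. Batch 1 alone called 17 members lower and 5 higher, where 22.5% of all genes were called lower and 14.5% higher. Without batch 1, limma called 0 members and 0 genes (17 members and 1355 genes had an unadjusted p under 0.05), and Col1a1 gave -1.19 (adjusted p = 0.295) and Col3a1 -0.89 (adjusted p = 0.259). Batch 2 alone called 0 genes, with 14 members and 1496 genes at an unadjusted p under 0.05, and batch 3 alone called 0, with 1 member and 556 genes at that level. The fibrillar median was -0.74 in batch 1, -0.59 in batch 2 and -0.75 in batch 3, and the basement membrane median was -0.09 in batch 1, -0.07 in batch 2 and -0.27 in batch 3. The fibrillar differences were negative for 6 of 8 genes in batch 1 and for 7 of 8 in each of batches 2 and 3. Over all batches, 7 of 15 mesenchymal, 5 of 6 Schwann cell, 3 of 7 macrophage and 3 of 7 duct markers were lower in small islets. This stands beside 12.7% of all genes. The remaining markers of these lists and 13 of 14 endothelial markers were not called, and the part of these cell types was not tested.

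Genes that act on these proteins were read from lists of the pathway. Of 25 tested genes that make, fold, trim or crosslink collagens, 21 were lower and 3 higher in adult islets, beside 46.8% lower and 21.1% higher over all genes. Sparc, a collagen-binding matricellular protein, stood at 38.3, 46.2 and 62.5 FPKM in adult, 200.4, 221 and 388 FPKM in neonatal small and 229, 283 and 558 FPKM in neonatal large islets (-2.51 ± 0.12, adjusted p = 7.29e-16). Pxdn, the peroxidase that crosslinks collagen IV, stood at 1.84, 2.78 and 4.09 FPKM in adult, 15.9, 19.6 and 28.0 FPKM in neonatal small and 17.5, 23.5 and 33.1 FPKM in neonatal large islets (-2.50 ± 0.10, adjusted p = 1.42e-17). The collagen chaperone gene Serpinh1 fell by 2.12. Prolyl 4-hydroxylase stabilises the triple helix, and its subunit genes did not move together. P4ha1 stood at 20.7, 26.7 and 31.3 FPKM in adult, 8.95, 12.1 and 13.9 FPKM in neonatal small and 11.1, 12.2 and 13.8 FPKM in neonatal large islets, without overlap between the ages (+0.91 ± 0.07, adjusted p = 3.92e-12). P4ha2 rose by 0.69 ± 0.08 (adjusted p = 1.47e-08). P4ha3 was low, with at most 0.136 FPKM in adult, 1.38 in neonatal small and 3.07 in neonatal large islets, and passed the filter through neonatal libraries alone (-0.59 ± 0.16, adjusted p = 0.00193).

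Of 13 tested collagen and laminin receptor genes, 12 were lower and 0 higher in adult islets, beside the same 46.8% and 21.1%. The laminin-binding integrin chain Itga7 gave -1.72 and the collagen-binding Itga1 gave -1.46. Of 11 tested matrix proteases and their inhibitors, 10 were lower in adult islets, beside 46.8% of all genes, led by Mmp14, a membrane-bound collagenase, at 2.27, 2.83 and 3.24 FPKM in adult, 13.3, 18.6 and 34.0 FPKM in neonatal small and 16.9, 25.8 and 57.9 FPKM in neonatal large islets (-2.60 ± 0.16, adjusted p = 1.43e-13). Between small and large islets, 6 of the 25 synthesis genes, 2 of the 13 receptors and 8 of the 11 proteases and inhibitors were lower in small islets and none was higher, beside 12.7% lower and 4.96% higher over all genes. The receptors' share was near that of all genes. Among the genes called, the gelatinase Mmp2 gave -0.996 (adjusted p = 0.0199), its inhibitor Timp2 -0.64 (adjusted p = 0.00335), the elastin and collagen crosslinker Loxl1 -0.92 (adjusted p = 0.0132) and the collagen receptor Ddr2 -0.40 (adjusted p = 0.0065).

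The authors' deposited table of neonatal over adult fold changes lists 34 members as higher in neonatal islets at an FDR under 0.05. It lists 1 member as higher in adult islets at that FDR and 8 as not under it. Of the members called here, 34 have the same direction and an FDR under 0.05 in the authors' deposited table. Col5a3, also called here, has the same direction there at an FDR of 0.19.

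Promoters of a few members that fell with age are shown from both classes, as the 150 bases upstream of the RefSeq start on GRCm38.p6, with capitals for the GC box (GGGCGG), the CCAAT box (CCAAT) and the TATA box (TATAAA) on either strand. They are Col3a1 at chr1:45311388-45311537 (plus strand), Col5a1 at chr2:27886275-27886424 (plus strand), Lama5 at chr2:180225860-180226009 (minus strand) and Agrn at chr4:156197489-156197638 (minus strand).
Col3a1: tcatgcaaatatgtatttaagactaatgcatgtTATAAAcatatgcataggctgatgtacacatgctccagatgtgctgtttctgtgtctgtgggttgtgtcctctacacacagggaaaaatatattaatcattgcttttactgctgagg
Col5a1: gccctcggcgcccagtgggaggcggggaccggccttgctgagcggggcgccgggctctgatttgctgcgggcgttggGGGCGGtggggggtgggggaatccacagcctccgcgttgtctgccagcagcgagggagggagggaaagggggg
Lama5: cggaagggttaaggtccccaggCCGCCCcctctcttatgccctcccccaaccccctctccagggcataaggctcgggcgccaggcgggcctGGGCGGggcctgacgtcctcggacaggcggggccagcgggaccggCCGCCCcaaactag
Agrn: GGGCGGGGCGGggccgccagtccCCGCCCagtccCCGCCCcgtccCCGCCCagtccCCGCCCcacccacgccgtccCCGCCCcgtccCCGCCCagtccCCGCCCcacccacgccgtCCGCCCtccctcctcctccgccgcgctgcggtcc
RefSeq promoters were at hand for 32 of the 43 members. A GC box lay in 20 of these 32, in 5 of 7 fibrillar and in 7 of 10 basement membrane promoters, against 28.6% of all 32851 promoters. CCAAT lay in 7 of the 32, against 24.5% of all promoters. TATAAA lay in 2, Col3a1 and Col11a2, both fibrillar, against 7.57% of all promoters. These matches are a description of letters, and overlapping GC box matches count once per promoter. Each member was counted once, while the 32851 promoters were not cut to 1 per gene or to genes expressed in islets. Some member windows, such as those of Hspg2 and Lamb1, overlap annotated exons.

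Coordinates from GENCODE M21 on GRCm38 place Col1a1 at chr11:94936224-94953042 (plus strand), Col3a1 at chr1:45311538-45349706 (plus strand), Col4a1 at chr8:11198423-11312826 (minus strand), Lamb1 at chr12:31265234-31329644 (plus strand) and Nid2 at chr14:19751265-19811787 (plus strand). Several members are neighbours in the genome. On chromosome 1 Col3a1 and Col5a2 lie 24.6 kb apart, and on chromosome 10 Col6a2 and Col6a1 lie 85.2 kb apart. Col3a1 and Col5a2, on opposite strands, differed by nearly the same amount between the ages (-2.57 for Col3a1 and -2.58 for Col5a2). This was not particular to neighbours, as Col5a1 on chromosome 2 gave -2.49. Between small and large islets the pair gave -0.93 for Col3a1 and -0.58 for Col5a2.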

How the data were processed

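Total RNA from mouse islets had been sequenced as ribosomal-RNA-depleted paired-end libraries in 3 batches. Per the submitters' processing notes the genome build was mm10 and the tools included STAR 2.6a, HTSeq 0.11.1 and edgeR. The authors deposited FPKM per gene and library, and a table of their own neonatal against adult comparison with a log2 fold change, a test score, and p-values with FDR. The annotation, the gene lengths and the strand setting are not given in the sources used here, so reads from the 22 shared bases of Col4a1 and Col4a2 cannot be assigned.

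FPKM values are not counts, so log2(FPKM + 1) was fitted with limma 3.58.1 in R 4.3.3 (trend and robust moderation), with group and batch as terms, on the 13402 of 13641 genes with at least 1 FPKM in at least 6 libraries. P-values were adjusted by Benjamini-Hochberg over all of them, with a threshold of 0.05. Adult minus neonatal took the neonatal level as the mean of the small and large group terms. The scripts were first tested on simulated data. Ratios used exact permutation tests within batches.

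Totals of 15.5 to 32.0 M fragments per library (M for mega) and gene lengths were worked out from the FPKM values. A length was accepted only where the values of all libraries fell within 0.03 of whole fragments. That 100.0% of values did so follows from this rule and is no check of the totals or lengths. Col4a1 then rested on 4175 to 79152 fragments, Col1a1 on 882 to 43077 and Col11a1 on 17 to 240. No libraries were identical, and replicates differed beyond sampling noise.

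Members and gene lists were chosen with earlier results of these data known. All members are counted by class, and the genes named with full values are the fibrillar, collagen IV, laminin, linker, multiplexin and collagen VI genes, the 3 largest falls and any rises among the other collagens, and the 2 largest falls and rises of each pathway list. Col5a3, Col11a2, Col27a1, Col6a6, Col8a1, Col16a1, Col26a1 and Serpinh1 were named after their values were seen. All members enter the counts, and 1 of them is not reported here. Alternatives covered the pseudocount, filter, scaling, batch, replicate numbers and single libraries left out in turn. The ranges given took 8 such libraries for adult minus neonatal and 20 for small minus large. Those of adult against each neonatal group took the 6 adult libraries.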

Additional observations from a re-analysis of the deposited data

Results flagged for a closer look

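In neonatal small replicate 5, of batch 3, 4 members and 1 class sum lay far above the other 8 small-islet libraries, by a gap that took up much of the range of the group. Col1a2 was at 66.6 FPKM there, against 38.8 in the next highest library. Col3a1 was at 157 FPKM, against 91.2. Col4a5 was at 4.09 FPKM, against 2.65. Nid1 was at 64.6 FPKM, against 48.7. The fibrillar sum was 429.5 FPKM, against 263 in the next highest. The same library had the highest mesenchymal marker sum of its group.

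In adult islets, replicate 4 had a Lamb1 to Lamb2 ratio of 0.922, against 0.781 in the next highest library, and replicate 1 had a Col6a1 to Col6a2 ratio of 2.79, against 2.35. In all, 7 of 80 groups of values held such a library (8.75%). Only adult and neonatal small libraries were screened, and the large-islet ones were not. The values were not logged and were pooled over batches, and most flags fell in the same library. No chance rate can therefore be set beside this share.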

How the results depend on the processing

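Between adult and neonatal islets, single-member results kept direction and call in 621 cases, lost the call in 10 and gained it in 1. Lama3 became 0.30 under quantile normalization. Rescaling moved the split of all genes, 6272 lower and 2824 higher, to 4475 lower and 4663 higher with median-of-ratios factors and to 4026 lower and 5021 higher with quantile normalization, which moved the median of all genes from -0.16 to 0.02 and 0.06. Members called higher were 3 with quantile normalization and 0 without batch 1. Leaving out 1 library, summarised here for 8 of the 26, gave 6065 to 6418 genes lower and 2616 to 2895 higher. Members were then 33 to 35 lower and 0 to 1 higher. Neonatal small replicate 5 was not among the 8, and without it Col1a1 gave -2.20 and Col5a1 -2.40.

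Between small and large islets, 962 single-member results kept direction and call, 79 lost and 6 gained the call. The split of 1698 lower and 665 higher became 1118 lower and 1070 higher with median-of-ratios factors (2 members higher), 1189 and 1475 with quantile normalization (3 members higher), 522 and 44 without a batch term (5 members lower, 0 higher), and 3013 and 1940 in batch 1 alone (5 members higher). Batch 2 alone, batch 3 alone and leaving out batch 1, the last chosen after seeing the data, gave 0 genes and 0 members called. Leaving out 1 library gave 1057 to 2032 genes lower, 353 to 858 higher, 14 to 20 members lower and 1 to 2 higher. The lowest gene counts came without small replicate 4.

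The labels do not say what shared library numbers mark. Of 7 pairs, 4 had a correlation over 0.1 (range -0.096 to 0.617) and 5 correlated best with their own number. This is a hint from the data that libraries of the same number may be related. Without a label for it, the main fit did not pair them and took the libraries as independent. Pairing by them in a replicate block gave 1911 genes lower and 1218 higher, and 11 members lower and 3 higher. The same libraries without the block, chosen after seeing the data, gave 1374 genes lower and 764 higher, and 15 members lower and 2 higher. Pairing adult and small islets by title number in a replicate block gave 25 members lower and 2 higher.

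For adult against small islets, members higher were 2 (median-of-ratios) and 3 (quantile), and batch 3 alone gave 5497 genes, 19 members lower and 0 higher. For adult against large islets, members higher were 2 (median-of-ratios), 4 (quantile), 1 (batch 2 alone) and 1 (batch 3 alone). Leaving out 1 adult library gave 8193 to 8323 genes, 33 members lower and 1 higher against small islets, and 8715 to 8929 genes, 34 to 36 members lower and 0 higher against large islets. Ratios called between the ages were 5 without any 1 adult library and 0 in batch 3 alone. The few arrangements of batch 3 pass the threshold only if every ratio gives the smallest possible p. Between sizes, 0 ratios were called within any batch. Few arrangements exist within a batch, and those of batch 3 cannot give a p under the threshold, so these single-batch counts decide nothing. Lama4 to Lama5 became 0.0035 in batch 3. Causes were not tested.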
